A study of Mus musculus with 8 samples.

Results

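The Notch receptors, their ligands, the DNA-binding effector and 2 target genes were followed in mouse pro-B cells that carried Lin28b, let-7b or an empty vector. The set held 10 genes, namely Notch1, Notch2, Notch3, Notch4, Rbpj, Hes1, Dtx1, Dll1, Dll4 and Jag1, and took every non-control probe of the array whose gene name was 1 of these symbols. This gave 13 probes (22 spots) of the 39429 probes (43020 spots, 31829 gene names) on the array. Of the 13 probes, 12 were well above background on at least 2 of the 8 arrays and were tested among 28409 such probes, and the single Dll1 probe was not. Notch1, Notch2 and Rbpj had a pair of probes each.

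Notch receptors are transmembrane proteins that a ligand of the Delta or Jagged family on a neighbouring cell activates. Cleavage by an ADAM protease and by gamma-secretase then frees the intracellular domain, which enters the nucleus, joins Rbpj and turns on targets such as Hes1 and Dtx1. In lymphocyte progenitors Notch1 signalling directs cells to the T lineage at the expense of the B lineage, Notch2 is required for marginal zone B cells, and OP9 stroma, which supports B cell growth, supports T cell growth once a Delta ligand is added to it.

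All cells came from BALB/c mice null for Rag1, the recombinase gene whose loss stops B cell development at the pro-B stage, and the null allele was shared by every group. Fetal liver (FL) pro-B cells were taken at gestation day 16, with the livers of 8 embryos on average pooled for a sort. Bone marrow (BM) pro-B cells were sorted from 2 adult mice a sort, and both kinds were placed on OP9 stromal cells with IL-7. The groups were FL cells with a let-7b retrovirus, FL cells with the empty MSCV vector, BM cells with a Lin28b retrovirus, and BM cells with the empty pMIG vector, 2 arrays each. In each sort 12 wells received the test virus and 12 the empty vector the day after plating, and cells positive for GFP were sorted 4 days after that. Lin28b binds let-7 precursors and keeps them from being processed, and let-7b belongs to the microRNA family it acts on. The labels name replicates 1 and 2 of each group. The p-values come from limma, which takes 1 spread per probe over all 8 arrays, not that of the groups compared. The median standard deviation between replicates was 0.075 with Lin28b and 0.082 with empty vector in BM. In FL it was 0.22 with let-7b and 0.28 with empty vector, so the smaller BM spread does not alone set the errors of the Lin28b comparison.

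The microRNA that the FL cells received is printed below to show what was added. The sequence is mature mouse let-7b (RefSeq, GRCm38.p6, plus strand of chr15:85707325-85707346), with its seed, bases 2 to 8, in capitals. The array did not measure mature microRNAs.
let-7b-5p: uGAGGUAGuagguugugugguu

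Promoter windows, 250 bases before and 50 after a gene's start, were searched for the TGGGAA core that Rbpj binds, on both strands (TTCCCA on the other). The RefSeq GRCm38.p6 windows used here covered 9 of the 10 genes, all but Hes1, with 11 windows in all, and 2 of them, overlapping windows of Rbpj, held the core, against 25.6% of 32851 windows of all genes. The longer GTGGGAA lay in none of the 11 and in 6.38% of all windows. The window of Notch3, the gene with the widest range of levels here, and the first window of Rbpj are shown. In capitals are matches of the core on either strand. A match is not a binding site, and its lack says only that these letters are not in the window.
Notch3, chr17:32166841-32167140, minus strand: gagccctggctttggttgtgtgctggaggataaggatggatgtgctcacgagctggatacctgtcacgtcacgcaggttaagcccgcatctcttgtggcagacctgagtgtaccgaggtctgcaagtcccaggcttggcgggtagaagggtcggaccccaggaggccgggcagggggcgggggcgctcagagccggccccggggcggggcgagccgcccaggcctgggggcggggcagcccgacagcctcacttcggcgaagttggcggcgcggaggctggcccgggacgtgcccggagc
Rbpj, chr5:53590096-53590395, plus strand: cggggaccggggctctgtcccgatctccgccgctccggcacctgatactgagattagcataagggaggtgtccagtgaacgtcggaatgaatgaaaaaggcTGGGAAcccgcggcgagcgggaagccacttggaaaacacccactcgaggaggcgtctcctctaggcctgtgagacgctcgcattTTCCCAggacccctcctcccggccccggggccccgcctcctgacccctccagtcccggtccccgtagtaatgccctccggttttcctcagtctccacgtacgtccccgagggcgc

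A level here is a probe's log2 processed signal less the log2 of the 75th percentile on the same array, so that a level of 0 is the signal at that percentile and each unit is a doubling. The percentile stood at 488 and 467 signal units with let-7b and 485 and 271 with empty vector on the FL arrays, and at 1925 to 2234 on the BM arrays. The lowest level well above background was -5.56 to -4.49 on FL arrays and -7.13 to -6.55 on BM arrays. The 8931 probes that were never above background stood 1.65 higher in FL than in BM with empty vector, and 1.92 higher in FL let-7b than in BM Lin28b. A dim probe can therefore be at a higher level in FL with no more than background in both. The 75th percentile also left the median of all tested probes 0.47 higher in FL, and scaling by quantiles, which brought that median to 0.00, is given beside the tissue differences of the members. FL and BM arrays lay on different slides and scans and carried different vectors and ages, so tissue, age, vector and slide cannot be told apart.

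All 10 measured pro-B cell markers (of 11 listed, Cd79a, Pax5 and Ebf1 among them) were well above background on every array. The transgene was visible in BM. One Lin28b probe (A_52_P532355) read 0.35 and 0.07 in BM cells with Lin28b, at least 121-fold above empty-vector cells, where neither array was well above background (limma adjusted p = 0.00174, n = 2 each). That probe was the 1 call of the Lin28b comparison. The other Lin28b probe (A_55_P1970905) read -5.86 and -5.75 with Lin28b against -6.58 and -6.32 with empty vector in BM (difference 0.64 ± 0.28, adjusted p = 1).

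Neither Lin28b nor let-7b changed a Notch gene past the threshold, and the tissues differed at most of them. With limma (Benjamini-Hochberg adjustment over 28409 probes, called below 0.05), 0 of 12 probes were called with Lin28b, where 0.00352% of all probes were called. With let-7b 0 of 12 were called as well, where 0.0246% of all were. Between FL and BM cells with empty vector 8 of 12 probes were called, all higher in FL, where 58.9% of all probes were called, 39.1% higher and 19.8% lower. On the other 4 arrays, FL let-7b against BM Lin28b, again 8 of 12 were called higher and 0 lower, where 57.6% of all were called, 38.8% higher and 18.8% lower. The 2 tissue comparisons share no array, and 7 of the 8 calls of each were common to both. The share of all probes called in both was not computed. Both comparisons use the same limma spread per probe and have the tissues on different slides, so they are not independent. The share of Notch probes called is near the background, so the count itself sets the genes apart from no others.

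At an unadjusted p under 0.05 stood 3 probes with Lin28b (3.46% of all probes) and 2 with let-7b (9.64% of all). The Lin28b groups did not overlap at 3 probes higher and 5 lower, against 17.8% and 33.3% of all probes. The let-7b groups did not overlap at 1 probe higher and 5 lower, against 11.8% and 18.2% of all. The median difference of the 12 probes was 0.04 with Lin28b and -0.14 with let-7b, beside -0.04 and -0.05 over all probes. The tissue groups with empty vector did not overlap at 10 probes higher and 1 lower in FL, against 53.7% and 28.9% of all. FL let-7b and BM Lin28b did not overlap at 8 higher and 1 lower, against 55.2% and 29.8% of all. In the tissue comparison with empty vector the median was 0.83, beside 0.47 over all. An exact permutation test of 2 arrays against 2 cannot go below p = 0.333 (two-sided), so each call rests on the spread that limma shares between probes.

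**Figure D1:**
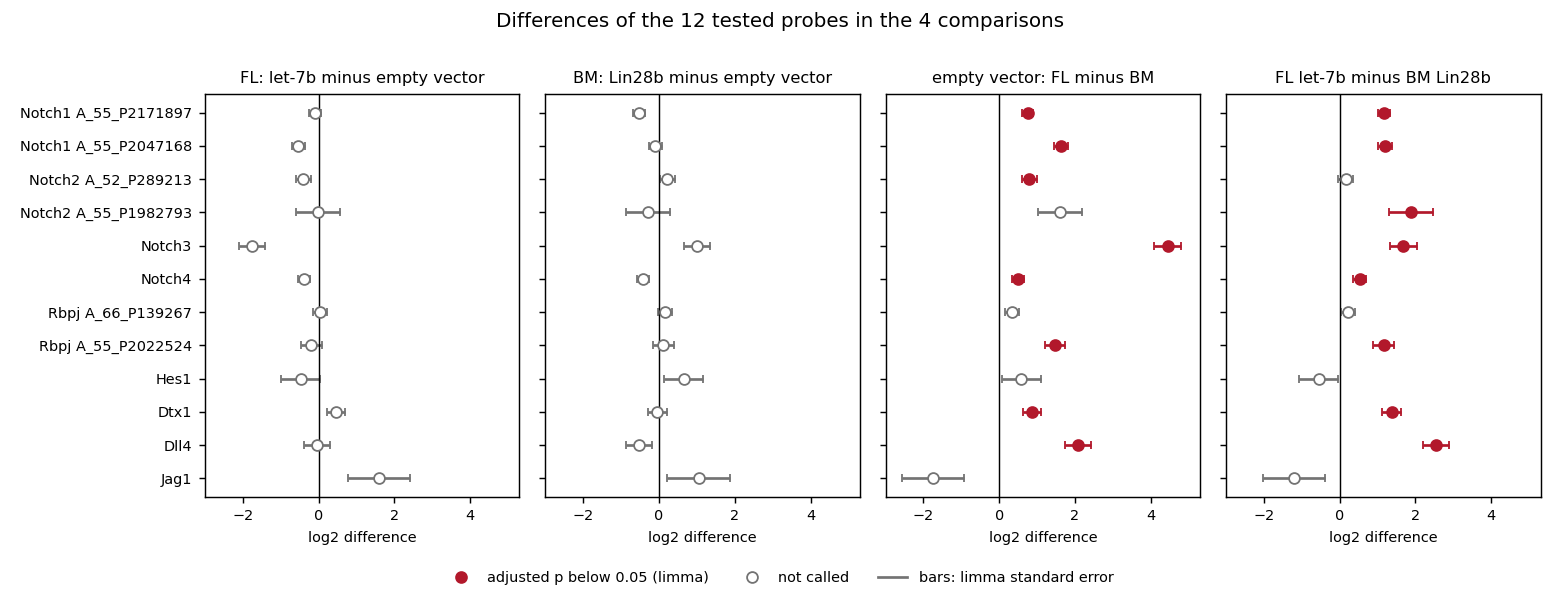
Differences (x axis, log2) of the 12 tested probes in the 4 comparisons, each point a difference of group means with limma's standard error as a bar. Red points are called. The panels for let-7b and Lin28b hold none, and the tissue panels hold 8 each, all to the right of 0, with Notch3 at 4.44 in the panel of empty vectors.

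Notch3, a receptor known from vascular smooth muscle and immature thymocytes, had the widest range of the set. Its probe (mm9 chr17:32257848-32257907, minus strand) read -2.64 and -2.74 in FL cells with let-7b. It read -1.02 and -0.85 in FL cells with empty vector, against -3.83 and -4.91 in BM cells with Lin28b and -5.49 and -5.26 in BM cells with empty vector. All 4 groups were apart from one another, in the order FL empty vector, FL let-7b, BM Lin28b, BM empty vector, and the probe was well above background on all 8 arrays.

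The tissue difference of Notch3 was 4.44 ± 0.35 with empty vector (limma's standard error, adjusted p = 0.00069, n = 2 each), 21.8-fold higher in FL. It was called under every alternative run, from 3.34 with another background correction to 4.56 without 1 BM array, and stood at 3.88 after quantile scaling. Before any scaling the signal was 239 and 151 units in FL against 42.8 and 55.6 in BM, so it was higher in FL although the 75th percentile of those arrays was lower.

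FL let-7b cells stood 1.68 ± 0.35 above BM Lin28b cells (limma adjusted p = 0.00962, 3.20-fold). Without scaling that order did not hold, since the signals were 78.3 and 70.1 units in FL let-7b and 157 and 69.2 in BM Lin28b. The call was lost with median scaling (0.88, adjusted p = 0.075) and with array weights (adjusted p = 0.0633). After quantile scaling the difference was 0.99 (adjusted p = 0.0415).

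Within each tissue the 2 viruses went with opposite differences of Notch3, and neither passed the test. In FL the level with let-7b was 1.75 ± 0.35 below that with empty vector on the log2 scale (difference -1.75, 3.37-fold, unadjusted p = 0.00276, adjusted p = 0.221, limma). It was lower on both slides, by -1.62 on one and by -1.89 on the other. Over all alternatives the difference lay between -1.97 and -0.51, with adjusted p from 0.101 to 1. The -0.51 is the normexp value, where the let-7b arrays read -1.95 and -0.60 and the empty-vector arrays -0.86 and -0.65. In BM the level with Lin28b was 1.01 ± 0.35 above that with empty vector (unadjusted p = 0.0291, adjusted p = 1). That difference was 1.66 between the arrays of replicate 1 and 0.36 between those of replicate 2, and it was 0.47 without the first Lin28b array. In the authors' deposited table, which was normalized apart for each tissue, Notch3 read 6.59 and 6.58 with let-7b against 7.75 and 7.98 with empty vector, and 7.53 and 6.76 with Lin28b against 6.43 and 6.54 with empty vector (log2).

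Several lists of cell type markers were higher in FL along with Notch3. Of 9 T cell markers 5 were called higher in FL with empty vector and 2, Cd5 and Zap70, lower, where 39.1% of all probes were called higher and 19.8% lower. Cd8a, a T cell coreceptor, was at least 12.8-fold higher in FL (limma adjusted p = 0.000857), with neither BM array well above background. It was not well above background with Lin28b either, so it passed the filter only through the FL arrays, where it was high. The summed linear level of the 9 measured T cell markers (of 10 listed), with the 75th percentile as 1, was 25.4 and 33.6 in FL let-7b and 35.0 and 64.6 in FL empty vector, against 8.34 and 9.94 in BM Lin28b and 7.86 and 8.00 in BM empty vector. Cd2, an adhesion receptor, and Cd4 and Cd3e, a coreceptor and a subunit of the T cell receptor complex, carried this. Cd3e read 1.50 and 1.44 in FL let-7b and 1.59 and 2.64 in FL empty vector, against -1.30 and -1.67 in BM Lin28b and -1.51 and -1.37 in BM empty vector. Cd3d stayed at -4.84 or lower on every array, and Cd3g was not above background on 2 arrays or more. Of 10 pro-B markers 7 were called higher in FL with empty vector and 0 lower, and their summed level was 989 and 1045 in FL let-7b and 869 and 1166 in FL empty vector, against 334 and 364 in BM Lin28b and 404 and 383 in BM empty vector. Of 9 myeloid markers 4 were called higher and 1 lower, with Csf1r, a receptor of macrophages, higher by 4.05 ± 0.40 (adjusted p = 0.00102) and Elane, a neutrophil protease, by 2.53 ± 0.20 (adjusted p = 0.000674). The 1 called lower was Lyz2, at -7.39 and -5.38 in FL empty vector against -3.82 and -3.93 in BM empty vector. Both of these FL values lay below the lowest level well above background on their arrays. Of 3 measured hepatocyte markers (of 8 listed) 2 were called higher, Fga by 3.86 ± 0.26 (adjusted p = 0.000585) and Serpina1a by 3.46 ± 0.57 (adjusted p = 0.00421), and of 4 erythroid markers (of 8 listed) 2, Hba-a1 and Slc4a1, were. In a bulk sample fewer cells of a type and less RNA per cell cannot be told apart, and the part of other cells in the Notch3 values was not tested.

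**Figure D2:**
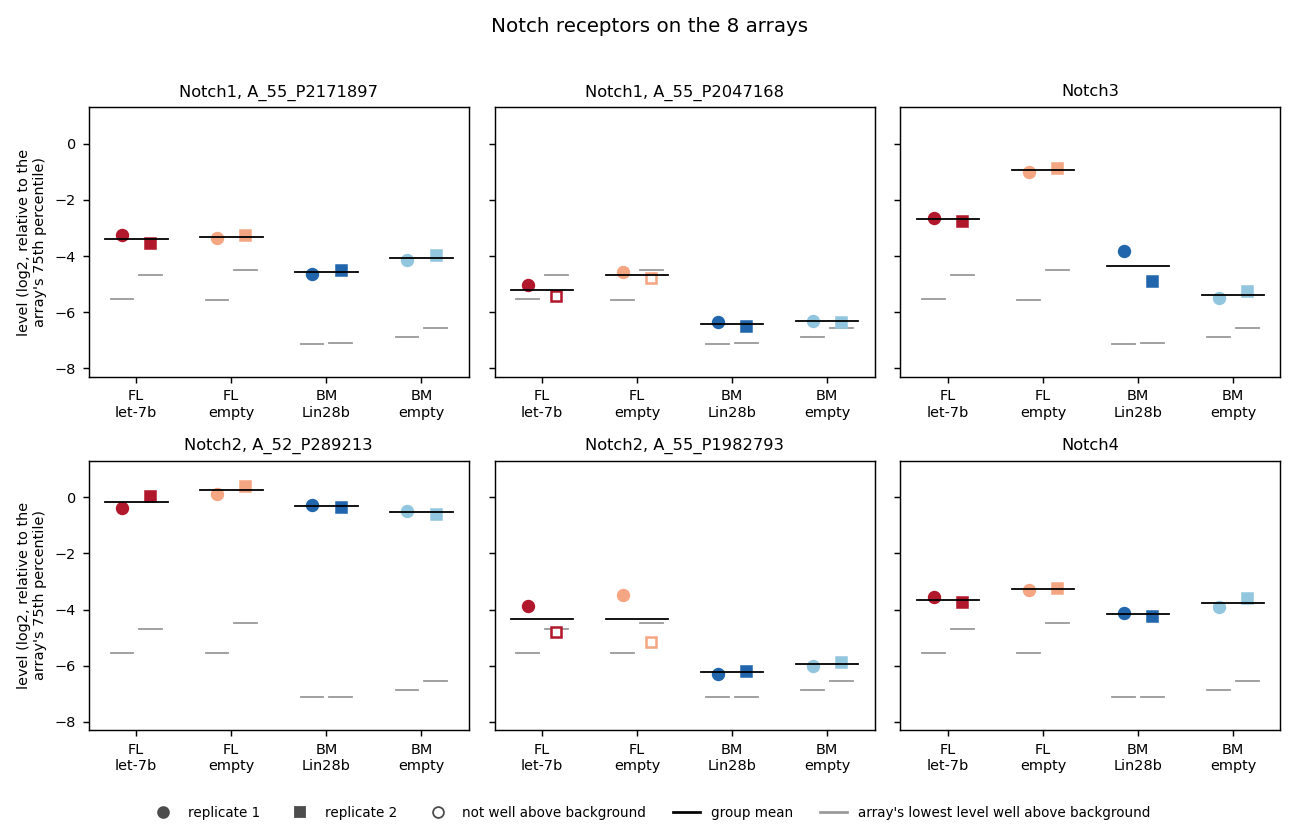
Levels (y axis, log2 relative to the array's 75th percentile) of the 6 receptor probes on each array, with FL groups left of BM groups, circles for replicate 1, squares for replicate 2, black lines for group means and grey lines for each array's lowest level well above background. Open symbols are not well above background. Notch3 spans -5.49 to -0.85, and the second probes of Notch1 and Notch2 are open on the replicate 2 arrays of FL.

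Notch1, the receptor of T lineage commitment, was low in all groups. Its brighter probe (mm9 chr2:26319440-26319499) read -3.25 and -3.54 in FL let-7b and -3.36 and -3.26 in FL empty vector, against -4.65 and -4.51 in BM Lin28b and -4.13 and -3.97 in BM empty vector. The 2 FL groups overlapped, and both lay above both BM groups. With Lin28b the level was 0.52 ± 0.16 below empty vector (difference -0.52, unadjusted p = 0.0165, adjusted p = 1, limma), lower on both arrays, and with let-7b the difference was -0.09 ± 0.16 (adjusted p = 0.914). The tissue difference was 0.74 ± 0.16 (limma adjusted p = 0.00943) with empty vector and 1.18 ± 0.16 (adjusted p = 0.0023) with the viruses. After quantile scaling these were -0.06 (adjusted p = 0.769) and 0.34 (adjusted p = 0.112), so the call rests on the scaling.

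The second Notch1 probe (mm9 chr2:26314630-26314689) read -5.03 and -5.42 in FL let-7b and -4.59 and -4.80 in FL empty vector, against -6.36 and -6.48 in BM Lin28b and -6.31 and -6.34 in BM empty vector. In each FL group 1 of 2 arrays was well above background, and all BM arrays were. Its tissue differences, 1.63 ± 0.18 and 1.20 ± 0.18 (limma adjusted p = 0.00119 and 0.00316), lay at or below the 1.65 and 1.92 by which probes at background shifted. Quantile scaling left 0.52 (adjusted p = 0.0378) with empty vector and 0.00 (adjusted p = 0.986) with the viruses. With let-7b it was lower on both slides, by -0.44 and -0.62 (unadjusted p = 0.0248, adjusted p = 0.44).

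Notch2, the receptor required for marginal zone B cells, gave one bright and one dim probe. The bright one (mm9 chr3:97953914-97953973) read -0.38 and 0.06 in FL let-7b and 0.10 and 0.39 in FL empty vector, against -0.27 and -0.36 in BM Lin28b and -0.48 and -0.60 in BM empty vector. All 4 groups thus lay close together, and FL let-7b overlapped BM Lin28b. The tissue difference with empty vector was 0.79 ± 0.20 (limma adjusted p = 0.017, 1.73-fold). It was 0.77 (adjusted p = 0.0202) after quantile scaling and -0.03 (adjusted p = 0.935) after median scaling. Between FL let-7b and BM Lin28b the difference was 0.16 ± 0.20 (limma adjusted p = 0.505), and 0.14 (adjusted p = 0.574) after quantile scaling. With let-7b Notch2 was lower on both slides, by -0.48 and -0.33 (adjusted p = 0.59), and with Lin28b the difference was 0.22 ± 0.20 (adjusted p = 1).

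The dim Notch2 probe (mm9 chr3:97951233-97951292) read -3.88 and -4.82 in FL let-7b and -3.50 and -5.17 in FL empty vector, against -6.29 and -6.18 in BM Lin28b and -6.02 and -5.87 in BM empty vector. Within FL only the replicate 1 arrays were well above background, and the 2 arrays of a group differed by more than the FL groups did. Its tissue differences of 1.61 ± 0.58 (limma adjusted p = 0.0566) and 1.89 ± 0.58 (adjusted p = 0.0354) were close to the shift of probes at background. Quantile scaling left 0.59 (adjusted p = 0.354) and 0.82 (adjusted p = 0.218), neither called. With the replicate block, which in FL is also the slide, the first was called (adjusted p = 0.00665).

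Notch4, a receptor best known from endothelial cells, read -3.54 and -3.75 in FL let-7b and -3.29 and -3.22 in FL empty vector, against -4.13 and -4.22 in BM Lin28b and -3.93 and -3.58 in BM empty vector (mm9 chr17:34725120-34725179). The groups with a virus lay below their empty vectors in both tissues. The difference was -0.39 ± 0.17 with let-7b (adjusted p = 0.543) and -0.42 ± 0.17 with Lin28b (unadjusted p = 0.0463, adjusted p = 1), so neither passed limma's test. The tissue differences of 0.50 ± 0.17 and 0.53 ± 0.17 (adjusted p = 0.0446 and 0.0372) turned to -0.25 and -0.30 after quantile scaling, where neither was called (adjusted p = 0.238 and 0.166). With the replicate block both calls were lost as well (adjusted p = 0.0685 and 0.0593).

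Rbpj, the transcription factor through which all Notch receptors act, was the steadiest member on its bright probe (mm9 chr5:54048503-54048562). This read 0.44 and 0.66 in FL let-7b and 0.35 and 0.69 in FL empty vector, against 0.45 and 0.22 in BM Lin28b and 0.26 and 0.10 in BM empty vector. Group means spanned 0.37, and no comparison was called. The difference was 0.03 ± 0.18 with let-7b (adjusted p = 0.981), 0.16 ± 0.18 with Lin28b (adjusted p = 1) and 0.34 ± 0.18 between tissues with empty vector (limma adjusted p = 0.157). Between FL let-7b and BM Lin28b it was 0.21 ± 0.18 (adjusted p = 0.353). Quantile scaling gave 0.33 (adjusted p = 0.164) and 0.21 (adjusted p = 0.362) for the tissues.

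The other Rbpj probe (mm9 chr5:54044777-54044836) read -1.98 and -1.59 in FL let-7b and -1.90 and -1.29 in FL empty vector, against -2.78 and -3.12 in BM Lin28b and -2.93 and -3.20 in BM empty vector. Here the tissues did not overlap. The tissue differences were 1.47 ± 0.27 (limma adjusted p = 0.00631) and 1.17 ± 0.27 (adjusted p = 0.0147). After quantile scaling 1.09 (adjusted p = 0.0317) and 0.75 (adjusted p = 0.0944) remained. The 2 probes of Rbpj therefore disagreed on the tissue call, and the differences with the viruses lay between -0.19 and 0.16 on both.

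Hes1, a repressor of the bHLH class and a general Notch target, was not called in any comparison. It read -2.67 and -2.36 in FL let-7b and -2.18 and -1.90 in FL empty vector, against -2.12 and -1.81 in BM Lin28b and -1.82 and -3.43 in BM empty vector (mm9 chr16:30067820-30067879). The second BM empty-vector array stood far below all others. The difference with Lin28b was 0.66 ± 0.51 (limma adjusted p = 1) and became -0.15 without that array. The tissue difference with empty vector was 0.58 ± 0.51 (adjusted p = 0.36) and became -0.22 without it, and 1.39 (adjusted p = 0.0196) without the other BM empty-vector array. After quantile scaling it was 0.20 (adjusted p = 0.761). With let-7b Hes1 was lower on both slides, by -0.49 and -0.47 (adjusted p = 0.836), and the FL groups did not overlap. FL let-7b and BM Lin28b did not overlap either, with a difference of -0.55 ± 0.51 (adjusted p = 0.385), and of -0.94 (adjusted p = 0.172) after quantile scaling.

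Dtx1, a ubiquitin ligase of the Deltex family and a Notch target in lymphocytes, was higher in FL. It read -2.61 and -2.10 in FL let-7b and -2.69 and -2.95 in FL empty vector, against -3.90 and -3.55 in BM Lin28b and -3.55 and -3.82 in BM empty vector (mm9 chr5:121130278-121130337). Every FL array lay above every BM array, and the BM groups overlapped. The tissue differences were 0.86 ± 0.24 (limma adjusted p = 0.0255) and 1.37 ± 0.24 (adjusted p = 0.00558). After quantile scaling they were 0.21 (adjusted p = 0.571) and 0.78 (adjusted p = 0.0683), neither of them called. With the replicate block, in FL also the slide, the call with empty vector was lost (adjusted p = 0.0561). Dtx1 was the only probe whose FL let-7b arrays both lay above both FL empty-vector arrays, by 0.47 ± 0.24 (adjusted p = 0.618), and with Lin28b the difference was -0.04 ± 0.24 (adjusted p = 1).

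Among the ligands, Dll1, which supports T lineage and marginal zone B cell development, never stood well above background, although its probe was printed 10 times. It lay at -6.63 to -6.38 in FL and at -7.67 to -7.54 in BM, and it was not tested. The 1.16 between these tissues with empty vector is a difference at background.

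Dll4, the ligand that thymic epithelium presents to T cell progenitors, was low, and higher in FL after scaling. It read -3.48 and -3.67 in FL let-7b and -3.13 and -3.92 in FL empty vector, against -6.46 and -5.76 in BM Lin28b and -5.69 and -5.50 in BM empty vector (mm9 chr2:119160779-119160838). It was well above background on all 8 arrays, and the tissues did not overlap. The tissue differences were 2.07 ± 0.34 (limma adjusted p = 0.00406, 4.20-fold) and 2.54 ± 0.34 (adjusted p = 0.00238, 5.81-fold), each above the 1.65 and 1.92 of probes at background. They remained called after quantile scaling at 1.16 (adjusted p = 0.0225) and 1.51 (adjusted p = 0.0101), and under every alternative run. Before any scaling the signals overlapped, with 55.3 and 17.9 units in FL empty vector against 37.2 and 47.2 in BM empty vector. They were 43.6 and 36.8 units in FL let-7b against 25.3 and 38.2 in BM Lin28b. With let-7b the difference was -0.05 ± 0.34 (adjusted p = 0.981), and with Lin28b it was -0.52 ± 0.34 (adjusted p = 1), lower on both arrays.

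Endothelial cells carry Dll4 and Notch4, and of the 7 endothelial markers measured 1, Kdr, was called higher in FL with empty vector and 2, Emcn and Robo4, lower. The summed linear level of the 7 (of 10 listed) was 24.0 and 21.0 in FL let-7b and 25.2 and 38.9 in FL empty vector, against 14.0 and 12.1 in BM Lin28b and 14.9 and 14.5 in BM empty vector. Egfl7 and Kdr made up nearly all of it, Tek, Tie1 and Esam were left out as not well above background on 2 arrays or more, and Cdh5 stayed at -5.10 or lower. The part of such cells in the Dll4 values was not tested.

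Jag1, a Jagged ligand that stromal and endothelial cells express, was the one member whose measured level with empty vector was lower in FL, and it was not called. It read -4.47 and -6.89 in FL let-7b and -7.80 and -6.74 in FL empty vector, against -4.10 and -4.85 in BM Lin28b and -5.42 and -5.62 in BM empty vector (mm9 chr2:136907433-136907492). In FL only the first let-7b array was well above background, while all 4 BM arrays were. With empty vector the FL level was not well above background, and since FL arrays reach less far down, the lower bound of the fold was under 1 and no fold is given. The measured difference was -1.75 ± 0.82 (limma adjusted p = 0.114). It was called at -3.19 (adjusted p = 0.0218) after quantile scaling, and it was 1.45 (adjusted p = 0.0955) with normexp background correction. Jag1 passed the filter through the BM arrays and 1 FL array.

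With Lin28b, Jag1 was higher on both arrays, by 1.04 ± 0.82 (limma adjusted p = 1). With let-7b the measured difference was 1.59 ± 0.82 (adjusted p = 0.618), with 3.34 on one slide and -0.15 on the other. Neither FL empty-vector array was well above background, so these are differences from background and no fold is given.

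The stromal markers were also read on each array. The summed linear level of the 14 measured markers (of 16 listed) was 21.2 and 16.1 in FL let-7b against 9.99 and 13.2 in FL empty vector. It was 53.7 and 35.0 in BM Lin28b against 20.8 and 24.7 in BM empty vector. Fn1, Sparc, Col1a2 and Cxcl12, matrix genes and a chemokine of stroma, were the highest on average. With Lin28b 13 of the 14 had a positive difference (median 1.05), 0 were called by limma and 9 had an unadjusted p under 0.05. With let-7b 11 of 14 had a positive difference (median 0.87), 0 were called and 5 had an unadjusted p under 0.05. The cells were grown on OP9 stroma and sorted for GFP, and the part of stromal RNA in the Jag1 values was not tested. The BM array with the highest stromal sum, the first with Lin28b, was also the one with the highest Notch3 in BM. In FL the order was the other way. The let-7b arrays had the higher stromal sums and Notch3 at -2.64 and -2.74, against -1.02 and -0.85 with empty vector.

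**Figure D3:**
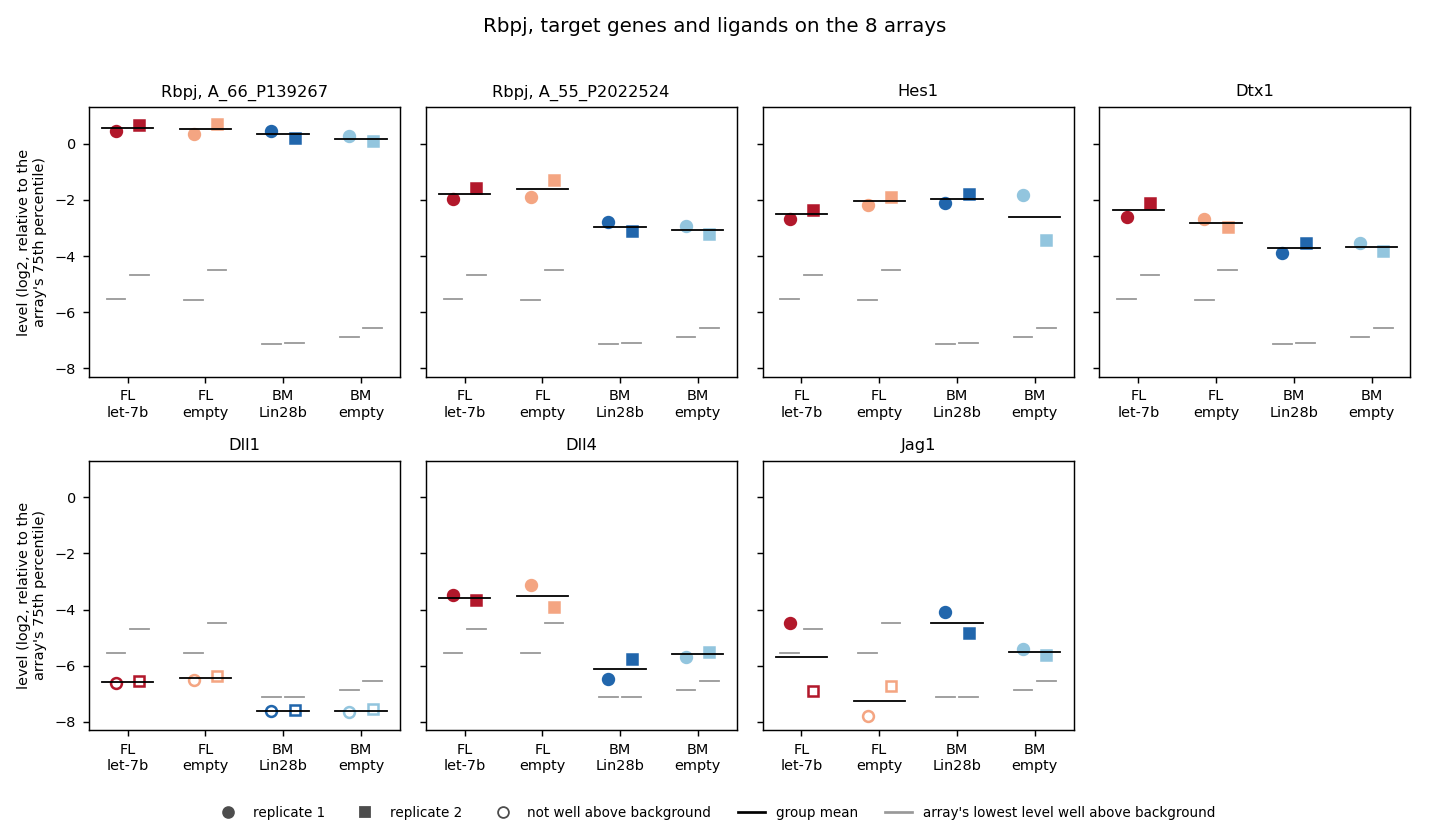
Levels (y axis, log2 relative to the array's 75th percentile) of the probes of Rbpj, Hes1, Dtx1, Dll1, Dll4 and Jag1 on each array, with FL groups left of BM groups and symbols for replicate and detection as defined in the legend. Dll4 is apart between the tissues, Dll1 is open on all 8 arrays, and Jag1 is open on 3 of 4 FL arrays.

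**Figure D4:**
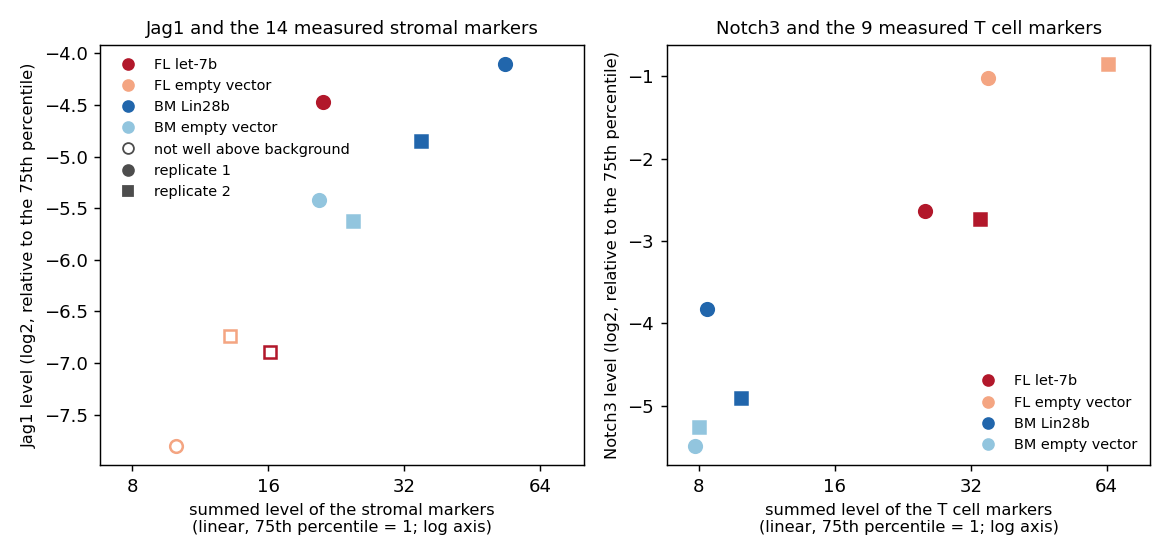
Left, the Jag1 level (y axis, log2) against the summed level of 14 stromal markers (x axis, linear values on a log axis) on each of the 8 arrays. Right, the Notch3 level against the summed level of 9 T cell markers. The first Lin28b array has the highest stromal sum, 53.7, and the highest Jag1 level, -4.10, and the FL arrays have T cell sums of 25.4 to 64.6 against 7.86 to 9.94 in BM.

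How far the tissue differences rest on the scaling was read from 4 settings. With empty vector, 8 of the 12 probes were called after the 75th percentile, 6 after quantile scaling, 4 after median scaling and 5 after normexp correction. Of all probes 58.9%, 51.8%, 54.9% and 42.1% were called in the same order. The share of those calls that were higher in FL was 66.4%, 47.3%, 32.5% and 84.0% in that order too. Notch3, Dll4 and the second Notch1 probe were called higher under all 4. The share of all probes called higher under all 4 was not computed. The second Notch1 probe was well above background on 1 of 2 FL arrays with empty vector. Before any scaling its signal was 20.2 and 9.75 units in FL against 24.2 and 26.4 in BM. The counts after quantile and median scaling include Jag1, which was called lower there. The brighter probes of Notch1, Notch2 and Rbpj, Notch4, Hes1 and Jag1 had signs that differed between settings.

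**Figure D5:**
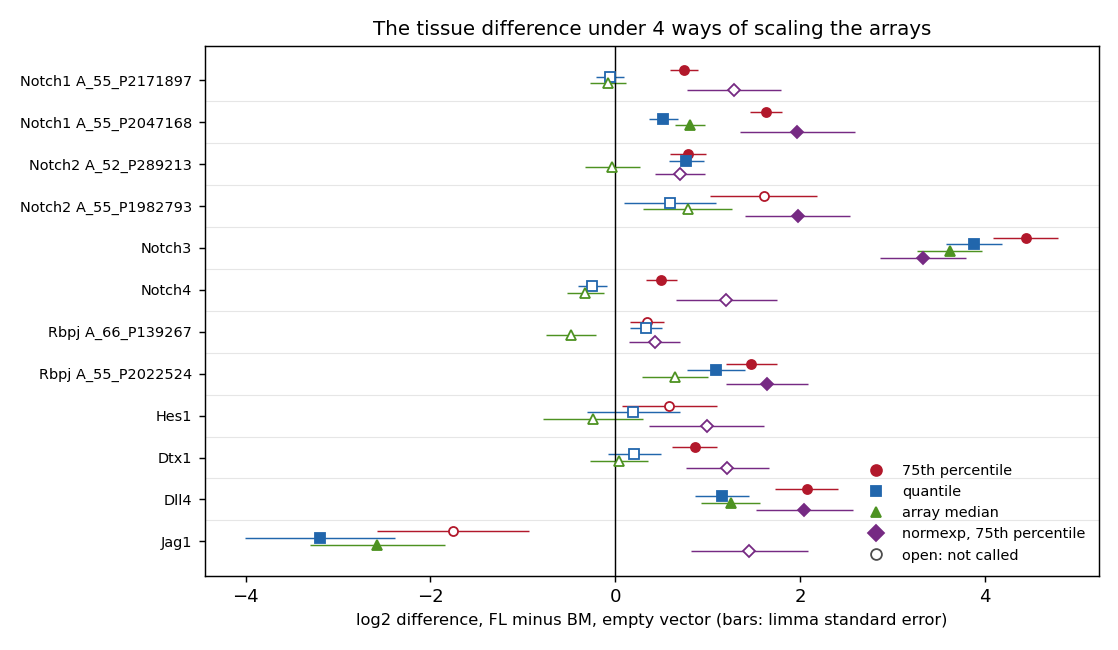
The FL minus BM difference with empty vector (x axis, log2, limma's standard error as bars) of the 12 tested probes under 4 settings, filled where called. Notch3 lies between 3.34 and 4.44 and Dll4 between 1.16 and 2.07, while Notch4 lies on both sides of 0 and Jag1 runs from -3.19 to 1.45.

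The rest of the pathway was read from 60 listed genes, of which 57 had a tested probe. With Lin28b 0 of the 57 were called by limma and 2 had an unadjusted p under 0.05 (3.46% of all probes had), and with let-7b 0 were called and 8 had (9.64% of all). Between the tissues with empty vector 22 were called higher in FL and 8 lower (median difference 0.25, beside 0.47 over all probes). Between FL let-7b and BM Lin28b 20 were called higher and 9 lower. Over all probes 39.1% were called higher and 19.8% lower with empty vector, and the 57 genes, with 38.6% and 14%, were near that share. The direction of these counts rests on the scaling. With empty vector they were 16 higher and 11 lower after quantile scaling, 6 and 23 after median scaling, and 12 and 0 after normexp correction. Between FL let-7b and BM Lin28b they were 15 and 13, 5 and 23, and 18 and 3 in the same order. Of all probes with empty vector, 24.5% were called higher and 27.3% lower, 17.8% and 37%, and 35.4% and 6.72% in that order. For FL let-7b against BM Lin28b these shares were 23.8% and 25.8%, 17.3% and 36.8%, and 49.4% and 9.15%. With the same sign under all 4 settings were called 4 of the 30 genes with empty vector (Dll3, Dlk2, Rbpjl and Hes7) and 6 of the 29 in the other comparison (Dll3, Rfng, Kat2a, Hes7, Il2ra and Myc). The share of all probes called with the same sign under all 4 settings was not computed. The counts by class below are given for the 75th percentile, and each is to be read against the shares of all probes at that scaling.

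Of the 4 other ligands measured, 3 were called higher in FL with empty vector and 1 lower. Dll3, a ligand that acts within the cell that makes it, was higher by 2.75 ± 0.19 (limma adjusted p = 0.000577), and the non-canonical ligands Dlk2 and Dlk1 by 2.08 ± 0.29 and 1.26 ± 0.37 (adjusted p = 0.00235 and 0.0306). Jag2 was lower by -1.20 ± 0.23 (adjusted p = 0.00663), and it was 0.69 (adjusted p = 0.373) with normexp correction. Dll3 was called higher under all 4 scalings in both tissue comparisons. With let-7b, Dll3 was 0.68 ± 0.19 below empty vector (difference -0.68, adjusted p = 0.357).

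Of 14 genes that glycosylate or cleave the receptors, 6 were called higher in FL with empty vector and 0 lower. Aph1b and Aph1a, parts of gamma-secretase, were higher by 1.44 ± 0.16 and 1.07 ± 0.17 (limma adjusted p = 0.00128 and 0.00387), and Psenen, a further part, by 0.78 ± 0.15 (adjusted p = 0.00705). After median scaling Psenen had a difference of -0.041 (adjusted p = 0.899). The Fringe genes Lfng, Mfng and Rfng and the proteases Adam10 and Adam17 were not called with empty vector. Rfng was called lower between FL let-7b and BM Lin28b, by -0.65 ± 0.19 (adjusted p = 0.0293).

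Of 11 genes for endocytosis and ubiquitin ligases, 6 were called higher in FL and 0 lower. Numb and Numbl, inhibitors of Notch at the membrane, were higher by 1.90 ± 0.37 and 1.93 ± 0.34 (limma adjusted p = 0.0071 and 0.00507), and Mib2, a ligase that acts on ligands, by 0.95 ± 0.16 (adjusted p = 0.00439). Of 18 nuclear cofactors of Rbpj, 3 were called higher and 5 lower. The coactivator Maml1 was higher by 0.87 ± 0.12 (adjusted p = 0.00247) and the acetyltransferase Kat2b lower by -0.74 ± 0.16 (adjusted p = 0.0112).

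Of 10 other target genes measured (of 12 listed), 4 were called higher in FL with empty vector and 2 lower. Hes7 was higher by 1.71 ± 0.17 (limma adjusted p = 0.000964) and Il2ra, the alpha chain of the IL-2 receptor, by 1.32 ± 0.29 (adjusted p = 0.0104). Ptcra, the pre-T cell receptor alpha chain, was called higher as well (adjusted p = 0.00798), but it was well above background on only 1 of the 2 FL arrays and on neither BM array, and no fold is given. Myc was lower by -0.96 ± 0.25 (adjusted p = 0.0194) and Nrarp, a feedback inhibitor, by -0.79 ± 0.23 (adjusted p = 0.0273), and Nrarp was 0.83 (adjusted p = 0.264) with normexp correction. With let-7b the smallest p of these genes was that of Il2ra, 1.37 ± 0.29 above empty vector (unadjusted p = 0.00344, adjusted p = 0.24). Hey1 and Hey2, further Notch targets, were left out as not well above background on 2 arrays or more.

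The probes most like Notch3 over the 8 arrays were those of Tmem45a (Pearson r = 0.993), AI428936 (r = 0.989) and Rtkn (r = 0.987). These are descriptions over 8 arrays that share 2 tissues, and 314 of 28408 probes had r over 0.95. Tmem45a averaged -1.68 in FL let-7b and -0.01 in FL empty vector, against -3.75 in BM Lin28b and -4.71 in BM empty vector, the order of groups seen for Notch3.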

How the data were processed

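RNA of 8 samples, 4 groups of 2, was read on 1-colour Agilent arrays. The deposited scanner files hold intensities from Feature Extraction 9.5.3.1, per the file headers, as a background-subtracted processed signal. The deposited normalized tables of the authors hold log2 values; the method of that normalization was not given in the sources used here. Their medians (6.16 in FL, 7.22 in BM) show a separate normalization of each tissue, so they were used within a tissue only.

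From the processed signals, log2 was taken, the array's 75th percentile subtracted and spots of a probe averaged. Control spots, 31 probes with outlier flags and 10989 probes well above background on fewer than 2 arrays were left out. The remaining 28409 probes were fitted over all 8 arrays with limma 3.58.1 (R 4.3.3) lmFit and eBayes, with Benjamini-Hochberg adjustment and a threshold of 0.05. The scripts were tested on simulated data. Sequences and figures were handled with Python 3.11.15 and matplotlib 3.10.9. The number of arrays limits the precision.

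Replicate numbers were not taken as pairs: deviations of same-numbered arrays from their group means correlated at 0.51 in FL, where the number is also the slide, and at -0.061 in BM. Alternatives were quantile and median scaling, normexp background correction with an offset of 50, no filter, 1 probe per gene, only the arrays compared, a trended robust fit, array weights, a replicate block, the authors' table and leaving out each array.

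The members and lists were chosen with earlier results of these data known. All members were reported. Of each pathway list up to 4 called genes with the smallest adjusted p were named, or up to 2 by p where none was called. Cell type genes could be named by the 4 highest mean levels of a list and the 2 smallest adjusted p of a comparison, and not all of these are printed. The 3 probes most like Notch3 were named. Cd3d, Cdh5, Emcn, Robo4, Cd5, Zap70, Lyz2, Myc, Nrarp, Dlk1, Rfng, Kat2a and genes named as not called or not measured were chosen after their values were seen. Some genes of the lists are not reported here by name.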

Additional observations from a re-analysis of the deposited data

How the results depend on the processing

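The 2 arrays a group, the lower signal of the FL arrays and the confounding of tissue with slide limit these results, and the cause of each change below was not tested. The count of Notch probes called was 0 with Lin28b and 0 with let-7b under every alternative run. Between tissues with empty vector it was 8, against 4 with median scaling, 5 with normexp correction and 5 to 9 when 1 array was left out (5 without the first BM empty-vector array). Between FL let-7b and BM Lin28b it was 8, against 3 with quantile scaling, 1 with median scaling and 9 with normexp correction. Of all probes 57.6%, 49.7%, 54% and 58.5% were called in the same order. With 1 probe per gene 5 Notch probes were called, and the second probes of Notch1, Notch2 and Rbpj were not tested there.

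With the replicate block (in FL also slide) the tissue counts were 7 and 7 of 12: with empty vector Dtx1 and Notch4 were no longer called and the second Notch2 was, and between FL let-7b and BM Lin28b Notch4 was no longer called. Over all probes the block gave 0 calls with Lin28b and 0 with let-7b, against 1 and 7 without it. The replicate block with a trended robust fit, chosen after seeing the data, gave 3 and 131.

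With 1 probe per gene, the Lin28b probe kept was A_55_P1970905, which had the higher mean level. The other, A_52_P532355, which gave the 1 call of the Lin28b comparison, was not tested there. The count over all probes with Lin28b was 0 in that setting, 4 with quantile scaling, 0 with normexp correction and 2 on only the arrays compared. It was 2 with a trended robust fit, 7 with array weights and 4 in the authors' table. With let-7b it was 76 with quantile scaling, 20 with median scaling, 89 with a trended robust fit, 0 to 625 without an array (625 without the first FL empty-vector array), and 0 with normexp correction, without a filter, on only the arrays compared, with array weights and in the authors' table. Without an array the tissue counts were 10932 to 17463 with empty vector and 9544 to 18380 for FL let-7b against BM Lin28b.

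Signs turned as follows. Between tissues with empty vector, median scaling gave -0.078 for the brighter Notch1 (A_55_P2171897), -0.033 for the brighter Notch2 (A_52_P289213), -0.33 for Notch4 (A_51_P195875), -0.48 for the brighter Rbpj (A_66_P139267) and -0.24 for Hes1. Quantile scaling gave -0.057 for that Notch1 and -0.25 for Notch4, normexp gave 1.45 for Jag1, and Hes1 ran from -0.22 to 1.39 without an array. Between FL let-7b and BM Lin28b, median scaling gave -0.64 for the brighter Notch2, -0.27 for Notch4 and -0.59 for the brighter Rbpj, quantile scaling gave -0.30 for Notch4, and normexp gave 0.63 for Hes1 and 2.07 for Jag1. There, Jag1 ran from -2.42 to 0.0062 and the brighter Notch2 from -0.058 to 0.38 without an array.

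With let-7b, normexp gave 0.63 for Dll4, 0.23 for Hes1, 0.63 for the brighter Notch1, 0.68 for the second Notch1 (A_55_P2047168), 0.76 for the second Notch2 (A_55_P1982793), 0.56 for Notch4, -0.12 for the brighter Rbpj and 0.24 for the second Rbpj (A_55_P2022524). After this correction the second FL let-7b array read -0.71 for Dll1, never well above background, and -0.63 for the brighter Notch1. The first FL let-7b array read -3.02 and -2.23. These signs thus rest largely on 1 array where dim probes lay close together. That array also enters the normexp values of FL let-7b against BM Lin28b. The authors' table gave 0.033 for the brighter Notch1 and -0.0045 for the brighter Rbpj. The second Notch2 was 0.0030 with median and 0.018 with quantile scaling. Without an array, Dll4 ran from -0.44 to 0.34, the brighter Notch1 from -0.24 to 0.055, the second Notch2 from -0.85 to 0.82, the brighter Rbpj from -0.14 to 0.20 and the second Rbpj from -0.50 to 0.12. With Lin28b, the second Notch1 was 0.015 with quantile scaling, and without an array Dtx1 ran from -0.22 to 0.14, Hes1 from -0.15 to 1.47 and the second Rbpj from -0.054 to 0.29.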
